A study of Homo sapiens with 6 samples.

Results

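The genes described here are 10 targets of the hypoxia-inducible factors (HIF) that lie outside glycolysis: CA9, CA12, NDRG1, ADM, ANGPTL4, BHLHE40, LOX, STC2, ANKRD37 and KDM3A. They were chosen by symbol from the 20020 genes of the deposited count table, which holds all 10, and 9 of them had enough counts to be tested. Polyadenylated RNA was sequenced from 786-O, an established line of human clear cell kidney cancer, kept in RPMI1640 medium with serum. The labels name 3 control samples of genotype puro, a word they do not spell out, and 3 samples of genotype shIGF2BP2, in which a short hairpin RNA (shRNA) is directed against IGF2BP2, a reader of the m6A mark on RNA. The series title places the work in an m6A-mediated TGF-β-SMAD axis of this cancer. The hairpin sequence, the oxygen level and whether each sample was a clone, a pool or a separate culture are not given in the labels, so a p-value here covers no more than the spread of these columns, which could be technical.

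The 6 samples fill 9 columns of the count table. Each of the 3 puro columns is numbered once, and each of the 6 shIGF2BP2 columns by a pair of numbers. The final number was taken for the replicate, as in the sample titles. No label gives the meaning of the preceding number, 2 or 3, which divides the knockdown columns into set 2 and set 3 of 3 columns each. Every shIGF2BP2 sample thus has 1 column in each set. This reading rests on the names alone, and the values do not show it: deviations from the arm means, across genes, had r of −0.0942, 0.00408 and −0.0723 between the set 2 and set 3 columns with final number 1, 2 and 3. Whether set 2 and set 3 are separate hairpins, cultures or days was not tested, and both were compared with the same 3 puro columns.

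In normal oxygen, prolyl hydroxylases of the EGLN family mark the HIF alpha subunits, and the VHL protein directs the marked subunits to degradation. When oxygen is low or VHL is lost, the alpha subunits pair with ARNT and switch on genes that carry a short response element near their start or in more distant enhancers. The line 786-O is known to lack functional VHL and to depend on the alpha subunit encoded by EPAS1 rather than on that encoded by HIF1A. HIF targets outside glycolysis are known to control pH at the cell surface, vessel tone, lipid handling, the matrix and chromatin.

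Total counts ranged from 33821216 in puro replicate 2 to 47470019 in set 3 replicate 3. All 10 markers of 786-O and renal tubule cells reached 1 FPKM, a count scaled by gene length and library total. None of 6 endothelial and none of 4 adipocyte markers did, and EMCN and ADIPOQ were at 0 in every column. COL1A1, ACTA2 and RGS5 did so among 8 fibroblast and pericyte markers, with a summed level of 3.49 to 4.09 FPKM for puro, 4.59 to 5.02 for set 2 and 3.02 to 3.03 for set 3. CD68 was the only one of 6 leukocyte markers to do so, and the list summed to 13.4 to 13.7 FPKM for puro, 24.9 to 26.5 for set 2 and 12.8 to 14.7 for set 3. The part of these shifts in the results was not tested. In bulk RNA, fewer cells of a type and less RNA per cell cannot be told apart.

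The stretch before the start of 3 of the genes is shown because CA12 and ADM were lower in both sets, while ANGPTL4 was higher in set 2 and lower in set 3. Each sequence holds the 250 bases before a RefSeq transcript start (GRCh38.p14), read 5′ to 3′ on the gene's strand. Capitals mark the HIF response element core, searched as ACGTG or GCGTG on both strands, so that CACGT and CACGC are the same cores on the opposite strand. CA12 lies on chr15:63381847-63382096 (minus strand), ADM on chr11:10304823-10305072 (plus strand) and ANGPTL4 on chr19:8363905-8364154 (plus strand).
CA12: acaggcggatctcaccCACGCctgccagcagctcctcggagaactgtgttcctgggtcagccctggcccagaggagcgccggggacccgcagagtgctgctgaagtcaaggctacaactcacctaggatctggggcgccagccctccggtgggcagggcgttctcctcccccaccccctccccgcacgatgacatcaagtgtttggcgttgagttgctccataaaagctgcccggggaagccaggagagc
ADM: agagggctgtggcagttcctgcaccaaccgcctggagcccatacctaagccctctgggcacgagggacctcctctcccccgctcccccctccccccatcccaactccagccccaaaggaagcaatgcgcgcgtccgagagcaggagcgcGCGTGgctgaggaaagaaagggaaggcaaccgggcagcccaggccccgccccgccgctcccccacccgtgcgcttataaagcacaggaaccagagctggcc
ANGPTL4: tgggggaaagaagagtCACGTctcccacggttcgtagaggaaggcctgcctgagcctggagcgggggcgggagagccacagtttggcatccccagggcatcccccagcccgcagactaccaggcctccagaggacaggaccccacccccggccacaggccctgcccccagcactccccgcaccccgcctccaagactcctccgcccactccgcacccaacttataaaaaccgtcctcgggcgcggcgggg

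The single core in the stretch shown lay 234 bases before the start in CA12, 101 in ADM and 234 in ANGPTL4. CA12 and ANGPTL4 thus carried it at the same distance, as GCGTG and ACGTG respectively, both on the opposite strand, and their RNA levels in set 2 differed in direction. CA12 has a further GCGTG on the opposite strand 39 bases after the start, outside the stretch shown. For other members, 30 bases around the first core before a start, read 5′ to 3′, are shown. BHLHE40 was lower in both sets. LOX and KDM3A were lower and STC2 was higher, with a call in set 2 and not in set 3. CA9 and ANKRD37 were near the detection limit. Counting both strands, the 250 bases before the start held 4 cores in BHLHE40, 3 in ANKRD37 and 4 in LOX, at the LOX start used here. Other LOX starts had further cores. The stretches therefore do not show every core of a gene. They lie on chr3:4979187-4979216 for BHLHE40, chr5:122078427-122078456 for LOX, chr2:86441333-86441362 for KDM3A, chr5:173328632-173328661 for STC2, chr9:35673898-35673927 for CA9 and chr4:185396667-185396696 for ANKRD37, with LOX and STC2 on the minus strand and the others on the plus strand.
BHLHE40: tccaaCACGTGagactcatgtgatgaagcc
LOX: gctccctgtgcaACGTGtctggggggagga
KDM3A: ccgggaggctgtGCGTGtcttgtgagagct
STC2: cacactcatacaCACGCACGCaaacGCGTG
CA9: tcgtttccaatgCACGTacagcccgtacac
ANKRD37: ggcgccgggctcCACGTGccagtgtttgtg

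The STC2 stretch holds 3 cores, of which 2 share a base. RefSeq windows of 250 bases before to 50 after a start were used for 9 of the 10 genes, 12 windows in all, and all 12 held a core. Over 35114 such windows of 27303 genes, 48.4% held one (21.4% ACGTG and 36.5% GCGTG). A core in the window is therefore common among all genes. The palindrome CACGTG, which holds ACGTG on each strand and is also the E-box bound by BHLHE40 itself, was in the BHLHE40 and ANKRD37 windows and in 7.26% of all windows. A match of these letters is a description, not a binding site, and none of the samples measured HIF binding.

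CA12, NDRG1, ADM and BHLHE40 were lower in both knockdown sets than in puro, and each was lower again in set 3 than in set 2. ANGPTL4 was 1.38-fold higher in set 2 and fell to 14.5% of the puro level in set 3. STC2 rose and LOX fell in set 2, and neither passed in set 3. KDM3A fell in set 2 and did not pass in set 3 or between the sets, and CA9 did not pass the test in either set. Genes were called at a false discovery rate (FDR) under 0.05 in the edgeR quasi-likelihood test across all genes, with no minimum fold. In set 2, 6 of 9 tested members fell and 2 rose, where 29.9% of 13346 genes were called lower and 30.0% higher. Scaled by library totals alone, 4 fell and 2 rose in set 2, since BHLHE40 and KDM3A lost the call. That scaling called 3177 of 13346 genes lower and 4926 higher in set 2. In set 3, 5 of 9 fell and 0 rose, where 27.6% of genes were called lower and 28.0% higher.

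Of the 9 tested genes, 4 (44.4%) were lower in both sets, a pattern found in 14.0% of all genes tested, and 1 (11.1%, ANGPTL4) moved in opposite directions, found in 9.02%. The share of all genes that were lower in both sets and lower again in set 3 than in set 2 was not counted. The median log2 fold change of the members was −0.61 in set 2 and −0.60 in set 3, beside 0.01 and 0.00 over all genes. The set 2 median is the value of CA9, which was near the detection limit and not called. Its neighbours in size were NDRG1 at −0.66 and KDM3A at −0.24. The set 3 median is the value of BHLHE40, so the near-equal medians rest on different genes. The sets themselves differed: 6 members were lower and 1 was higher in set 3 than in set 2, where 30.8% of genes were called lower and 29.8% higher. With the 2 columns of each shIGF2BP2 sample summed and 3 samples set against 3, 7 members fell and 1 rose, where 29.2% of 13518 genes were called lower and 28.8% higher. If the first number of the column names is taken as the sample, which leaves 2 knockdown samples, 3 of the 9 passed (CA12, ADM and NDRG1), all lower, and calls over all genes dropped too, to 570 lower and 715 higher of 13192 tested. The members were picked by name as known targets, with earlier results of these data known, and these counts describe them without a test of the list. Over 35 other tested HIF targets outside glycolysis, the median log2 fold change was 0.09 in set 2 and −0.02 in set 3.

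**Figure D1:**
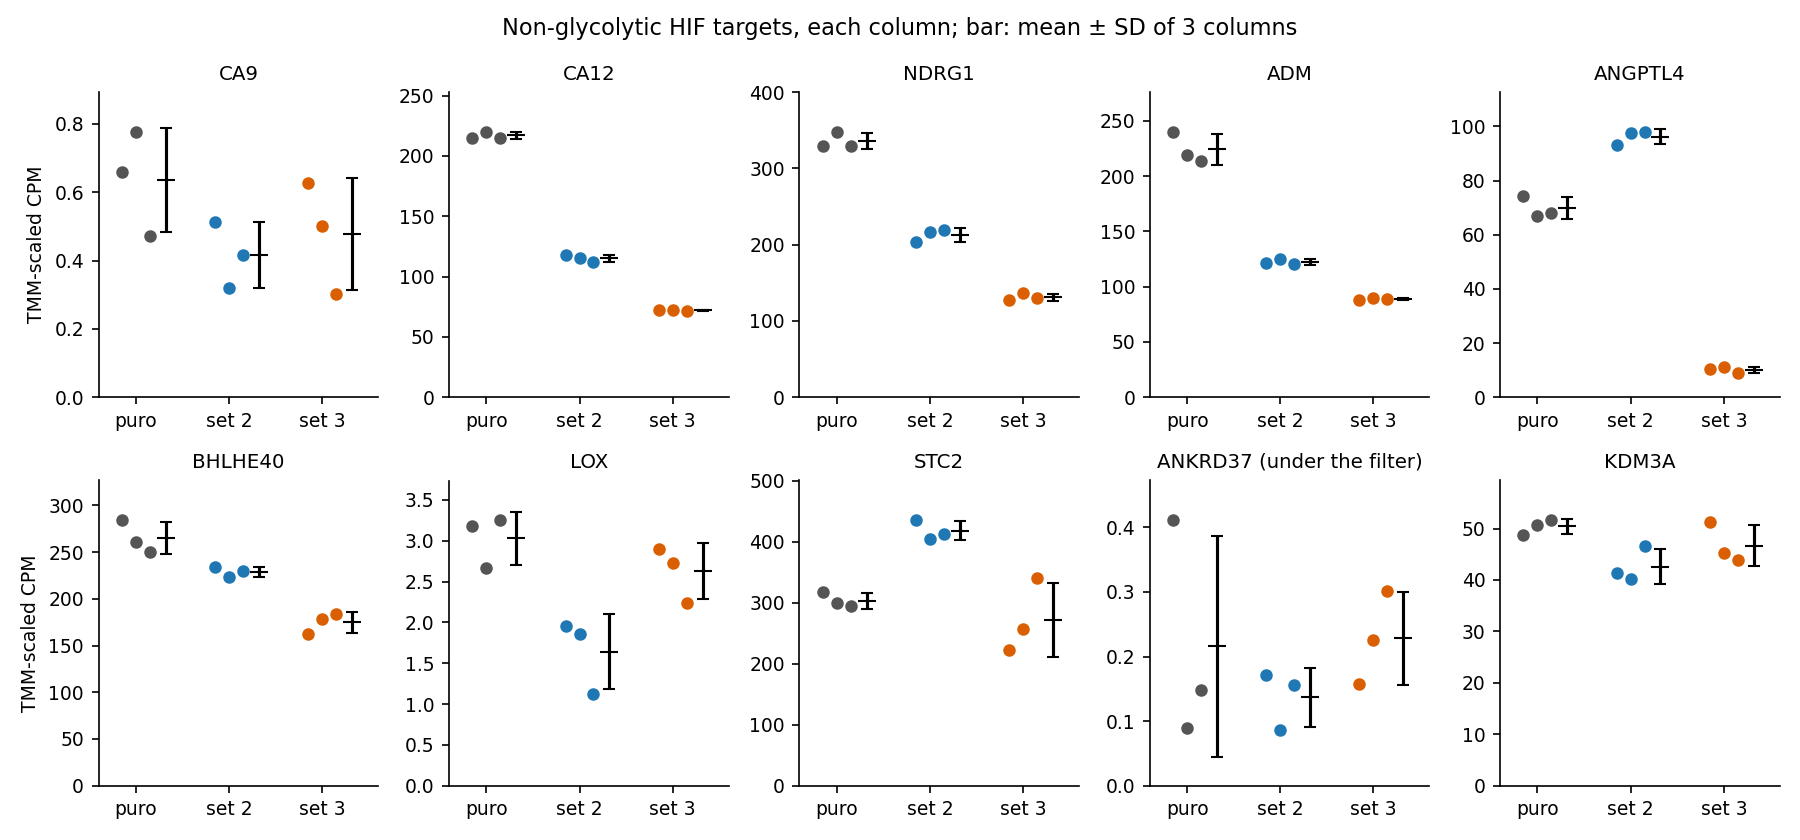
Level of each of the 10 genes as CPM, counts divided by TMM-scaled library totals (linear axis from 0, a scale of its own per gene) in the 3 puro, 3 set 2 and 3 set 3 columns; points are columns, and the bar beside them is the mean ± SD. CA12, NDRG1, ADM and BHLHE40 step down from puro to set 2 to set 3 with no overlap, while ANGPTL4 is highest in set 2 at 93.0 to 98.0 CPM and lowest in set 3 at 8.86 to 11.0 CPM. The share of all genes that step down without overlap was not counted.

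CPM compares 1 gene between columns, while FPKM compares genes. In puro, the mean level was 94.8 ± 5.81 FPKM for ADM (SD, n = 3), 87.9 ± 3.24 for NDRG1, 82.7 ± 5.49 for BHLHE40 and 70.2 ± 3.00 for STC2. ANGPTL4 and CA12 followed at 36.7 ± 2.05 and 35.0 ± 0.71 FPKM, and KDM3A at 10.0 ± 0.281. The ranges of the puro columns overlapped between ADM and NDRG1, between NDRG1 and BHLHE40, and between ANGPTL4 and CA12, so these neighbours are not ordered by the data. LOX (0.562 FPKM), CA9 (0.405) and ANKRD37 (0.271) lay far below KDM3A, and their ranges overlapped.

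The order changed with the knockdown columns. In set 2 the highest of the 10 was STC2, at 103 ± 4.17 FPKM (SD, n = 3), above BHLHE40 at 76.5 ± 1.90, with no overlap of the columns. NDRG1, ADM and ANGPTL4 stood close together in set 2, at 59.7, 55.3 and 54.1 FPKM. In set 3 ANGPTL4 was at 5.21 ± 0.534 FPKM, below KDM3A at 9.10 ± 0.691, whereas in puro and in set 2 it was above KDM3A.

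**Figure D2:**
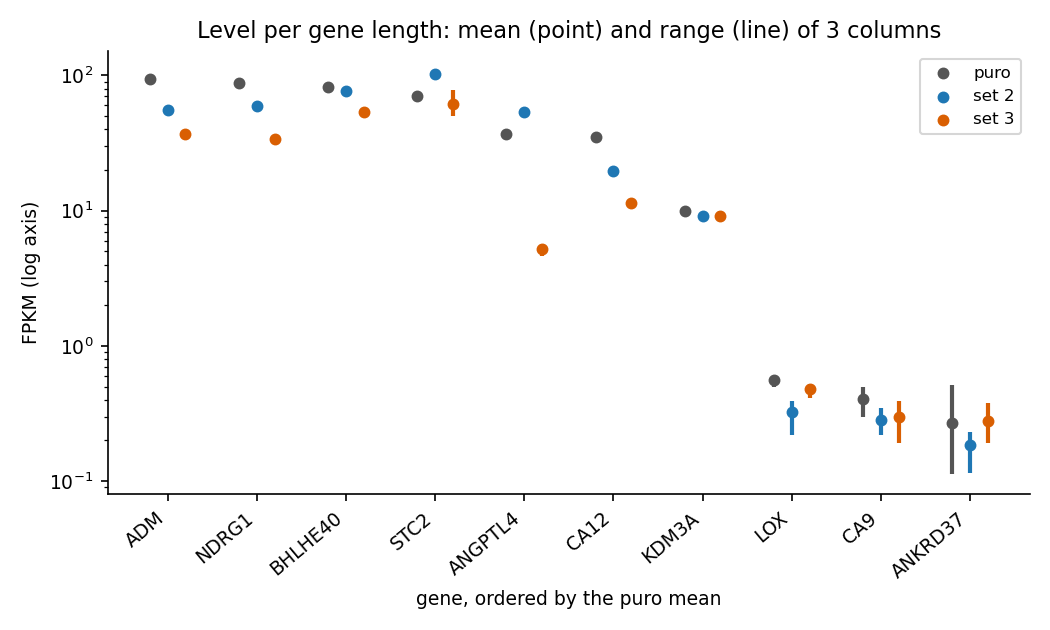
Level per gene length (FPKM, log axis) of the 10 genes, ordered by the puro mean; points are means of 3 columns and lines span the lowest to the highest column of puro, set 2 and set 3. Of the 10 genes, 7 lie between 5.21 and 103 FPKM in every arm and 3 (LOX, CA9 and ANKRD37) lie below 1 FPKM, and the order of the genes differs between the arms, with STC2 highest in set 2 and ANGPTL4 below KDM3A in set 3; the STC2 and BHLHE40 columns overlap in set 3.

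CA12 and CA9 encode carbonic anhydrases of the cell membrane that hydrate carbon dioxide on the outer face and so shape the pH around the cell. CA12 (chromosome 15, 63321378 to 63382161, minus strand, GRCh38) had 215, 220 and 215 CPM in the 3 puro columns, 118, 115 and 112 in set 2, and 71.9, 72.5 and 71.8 in set 3. The arms were fully separated, and the spread within each was small. Set 2 kept 53.0% of the puro level (log2 fold change −0.92, SE 0.062, edgeR adjusted p = 7.97e-13) and set 3 kept 33.3% (−1.59, SE 0.063, adjusted p = 1.85e-17). Set 3 lay below set 2 as well (−0.67, SE 0.062, adjusted p = 4.52e-10).

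CA9, the carbonic anhydrase used as a tissue marker of HIF activity, was close to the detection limit. It had 24, 26 and 16 counts in puro, 21, 15 and 16 in set 2 and 24, 20 and 14 in set 3. All 3 arms overlapped. The mean was 0.636 ± 0.153 CPM (SD, n = 3) in puro, 0.416 ± 0.0957 in set 2 and 0.477 ± 0.164 in set 3, and neither fold passed (log2 −0.61, SE 0.46, edgeR adjusted p = 0.257, and −0.43, SE 0.46, adjusted p = 0.445). With standard errors of this size, changes as large as these folds do not pass at this depth. The values therefore show neither a fall of that size nor its absence. CA9 (chromosome 9, 35673856 to 35681159, plus strand) shares 643 of its 1670 exonic bases in GENCODE with ARHGEF39 on the other strand. Whether its few counts include reads of that gene is not known, because the strand setting of the counting and its handling of shared reads are not given.

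Of the 15 carbonic anhydrase genes listed, 7 were tested. In set 2, 2 rose and 2 fell, where 30.0% of all genes rose and 29.9% fell. In set 3, 1 rose and 3 fell, where 28.0% of all genes rose and 27.6% fell. CA2, the fast cytosolic enzyme, had a mean of 80.5 ± 5.42 CPM (SD, n = 3) in puro, 18.7 ± 1.27 in set 2 and 26.2 ± 0.75 in set 3. It fell in set 2 (log2 −2.10, edgeR adjusted p = 7.11e-18) and in set 3 (−1.62, adjusted p = 1.21e-15), and unlike CA12 it was higher in set 3 than in set 2 (0.48, adjusted p = 8.88e-06). CA13, another cytosolic form, rose from 3.74 CPM by 0.70 and 0.89 on the log2 scale (edgeR adjusted p = 0.000577 and 3.62e-05). The mitochondrial CA5B, at 2.67 CPM in puro, rose by 0.49 in set 2 (edgeR adjusted p = 0.0438) and stood at −0.01 in set 3.

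ADM encodes the precursor of adrenomedullin, a secreted peptide that widens vessels and promotes their growth. ADM (chromosome 11, 10304680 to 10307397, plus strand) had 240, 219 and 214 CPM in puro, 121, 125 and 120 in set 2 and 87.9, 89.4 and 88.4 in set 3. The 3 arms did not overlap, and puro had the widest spread. It kept 54.5% of the puro level in set 2 (log2 −0.88, SE 0.064, edgeR adjusted p = 4.30e-12) and 39.5% in set 3 (−1.34, SE 0.065, adjusted p = 1.36e-15), and set 3 lay below set 2 (−0.46, SE 0.064, adjusted p = 6.26e-07).

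Genes for the processing and reception of adrenomedullin were listed with ADM. Of 6 tested among 9 listed, ADM included, 1 rose and 2 fell in set 2, and 0 rose and 3 fell in set 3. Over all genes, 30.0% rose and 29.9% fell in set 2, and 28.0% rose and 27.6% fell in set 3. ACKR3, a chemokine receptor that also takes up adrenomedullin, had 20.2 ± 1.22 CPM (SD, n = 3) in puro, 3.06 ± 0.48 in set 2 and 9.62 ± 0.827 in set 3. It fell by 2.72 and 1.07 on the log2 scale (edgeR adjusted p = 7.43e-16 and 1.08e-08). PAM, the enzyme that amidates the peptide, had 222 CPM in puro and changed by 0.21 in set 2 and by −0.42 in set 3 (edgeR adjusted p = 0.00403 and 1.09e-06). CALCRL, the signalling receptor, had 0.136 CPM in puro, and its partners RAMP1, RAMP2 and RAMP3 were below the filter on low counts.

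ANGPTL4 encodes a secreted inhibitor of lipoprotein lipase, which limits the uptake of fat from circulating lipoproteins. ANGPTL4 (chromosome 19, 8363289 to 8374373, plus strand) had 74.4, 66.9 and 68.1 CPM in puro, 93.0, 97.6 and 98.0 in set 2 and 10.4, 11.0 and 8.86 in set 3. Every set 2 column was above every puro column, and every set 3 column was far below both. Relative to puro it rose by 0.46 in set 2 (log2, SE 0.075, edgeR adjusted p = 6.83e-06) and fell by 2.79 in set 3 (SE 0.085, adjusted p = 1.32e-19).

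The difference between the sets in ANGPTL4 was −3.25 (log2, SE 0.086, edgeR adjusted p = 6.53e-21), so that set 3 held 10.5% of the set 2 level. Among 13346 genes its rank was 3 by p-value and 47 by size in this comparison, and 7 by p-value and 98 by size in set 3 against puro. Summing both columns of each sample gave −0.40 (edgeR adjusted p = 2.85e-05), a value between opposite changes that describes neither set. Under the reading that leaves 2 knockdown samples, that fold was −0.38 with an edgeR adjusted p = 0.787. The other 7 angiopoietin-like genes were below the filter on low counts, so ANGPTL4 had no tested relative.

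STC2 encodes stanniocalcin-2, a secreted glycoprotein that blocks the protease PAPP-A. STC2 (chromosome 5, 173314713 to 173329503, minus strand) had 318, 299 and 294 CPM in puro, 435, 404 and 413 in set 2 and 222, 256 and 340 in set 3. Set 2 was above puro in every column, and set 3 spread across the puro range, with replicate 3 above it and replicates 1 and 2 below. It rose by 0.46 in set 2 (log2, SE 0.094, edgeR adjusted p = 0.000128) and stood at −0.16 in set 3 (SE 0.094, adjusted p = 0.162). Without shIGF2BP2 replicate 3 the set 3 value was −0.34 and passed (edgeR adjusted p = 0.000556), and without replicate 1 it was −0.03 (adjusted p = 0.789), so its size rests on single columns. Set 3 lay below set 2 in all columns (−0.62, adjusted p = 2.49e-06). Its paralog STC1, at 51.4 ± 2.58 CPM (SD, n = 3) in puro, rose by 0.31 and 0.28 (edgeR adjusted p = 0.00113 and 0.00325).

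LOX encodes lysyl oxidase, which cross-links collagen and elastin outside the cell. LOX (chromosome 5, 122063195 to 122078360, minus strand) was low, with 3.18, 2.66 and 3.25 CPM in puro, 1.95, 1.86 and 1.12 in set 2 and 2.90, 2.73 and 2.24 in set 3. Set 2 lay below puro and below set 3 in all columns, and set 3 overlapped puro. The fold was −0.88 in set 2 (log2, SE 0.23, edgeR adjusted p = 0.00215) and −0.21 in set 3 (SE 0.23, adjusted p = 0.447), with a difference of 0.67 between the sets (adjusted p = 0.0159). Without shIGF2BP2 replicate 3 this difference was 0.56 and no longer passed (edgeR adjusted p = 0.0676). Of its 5547 exonic bases, 138 overlap SRFBP1, which could add reads to so low a gene, and this was not tested.

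Per gene length, LOX at 0.562 FPKM in puro was far below its relatives LOXL2 at 66.7 and LOXL1 at 12.7 FPKM. LOXL2, which acts on the same kind of substrate, had 252 ± 14.5 CPM (SD, n = 3) in puro, 268 ± 3.75 in set 2 and 426 ± 34.6 in set 3. It stood at 0.09 in set 2 (edgeR adjusted p = 0.258) and rose by 0.76 in set 3 (adjusted p = 2.38e-10). LOXL1 had 30.3 CPM in puro and changed by 0.17 and −0.25 (edgeR adjusted p = 0.102 and 0.0240). Of the 5 genes, 1 fell in set 2, where 29.9% of all genes fell and 30.0% rose. In set 3, 1 rose and 1 fell, where 28.0% of all genes rose and 27.6% fell. With library totals alone 2 of the 5 also rose in set 2, where 4926 of 13346 genes rose and 3177 fell.

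NDRG1 encodes a cytoplasmic protein induced by hypoxia, differentiation and stress. NDRG1 (chromosome 8, 133237171 to 133302022, minus strand) had 329, 348 and 330 CPM in puro, 203, 217 and 219 in set 2 and 128, 136 and 130 in set 3. The arms were separated by wide gaps. It kept 63.4% of the puro level in set 2 (log2 −0.66, SE 0.062, edgeR adjusted p = 7.09e-10) and 39.1% in set 3 (−1.35, SE 0.063, adjusted p = 6.17e-16), and the sets differed by −0.70 (adjusted p = 2.57e-10). The relative NDRG3 moved the other way, from 32.3 ± 2.61 CPM by 0.51 in set 2 and 0.33 in set 3 (edgeR adjusted p = 1.77e-06 and 0.000693). NDRG4, at 1.17 ± 0.298 CPM (SD, n = 3) in puro, stood at −0.36 in set 2 (edgeR adjusted p = 0.297) and rose by 1.47 in set 3 (adjusted p = 4.16e-05).

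BHLHE40 encodes a transcriptional repressor that binds E-boxes and is part of the circadian clock's feedback. BHLHE40 (chromosome 3, 4979116 to 4985323, plus strand) had 284, 261 and 250 CPM in puro, 234, 223 and 230 in set 2 and 162, 178 and 184 in set 3. The arms did not overlap, but the highest set 2 column came close to the lowest puro column. It fell by 0.60 in set 3 (log2, SE 0.067, edgeR adjusted p = 1.71e-08), and set 3 lay below set 2 by −0.39 (adjusted p = 1.38e-05). The smaller set 2 value was −0.21 (SE 0.066, edgeR adjusted p = 0.00767). It lost the call on leaving out puro replicate 1 (edgeR adjusted p = 0.0562), without shIGF2BP2 replicate 2 (0.0578), and when scaled by library totals alone (−0.11, 0.151) or on log2 FPKM (−0.11, limma adjusted p = 0.161 and 0.162).

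Other genes of the circadian clock were counted beside BHLHE40. Of 12 tested among the 13 listed genes that the table holds, BHLHE40 included, 9 fell and 1 rose in set 2, and 10 fell and 1 rose in set 3, where 29.9% and 27.6% of all genes fell. With library totals alone the set 2 count was 6 falls and 1 rise, as BHLHE40, BHLHE41 (edgeR adjusted p = 0.296) and CRY1 (0.163) lost the call. Over all 13346 genes, 3177 fell and 4926 rose in set 2 with that scaling. The period genes PER1 and PER3, which encode repressors of the clock, fell by 1.45 and 1.29 in set 2 and by 1.23 and 0.73 in set 3 (log2, edgeR adjusted p = 7.72e-11 and 6.26e-14 in set 2, and 1.79e-09 and 3.37e-09 in set 3). CLOCK, a subunit of the activator, fell by 0.66 and 0.48, and the repressors NR1D1 and NR1D2 fell by 0.79 and 0.68 in set 2 and by 0.36 and 0.82 in set 3.

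The paralog BHLHE41 had −0.20 in set 2 and fell by 0.90 in set 3 (edgeR adjusted p = 0.0320 and 2.12e-10), and the leucine zipper factor TEF fell by 0.46 and 0.65. CRY2 and PER2, further clock repressors, stood at −0.02 and 0.01 in set 2 and fell by 0.62 and 0.69 in set 3. CRY1 fell by 0.25 in set 2 (edgeR adjusted p = 0.0195) and stood at 0.18 in set 3 (adjusted p = 0.0860). The single gene that rose in both was BMAL1, which encodes the partner of CLOCK, from 8.93 ± 0.645 CPM (SD, n = 3) in puro to 15.4 ± 1.56 and 20.7 ± 0.453 (log2 0.79 and 1.21, edgeR adjusted p = 3.24e-07 and 1.39e-10). The labels give no time of day or serum change for the harvest, and the part of such a difference was not tested.

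KDM3A encodes a JmjC histone demethylase that uses oxygen, as the prolyl hydroxylases do. KDM3A (chromosome 2, 86440647 to 86492716, plus strand) had 48.8, 50.7 and 51.6 CPM in puro, 41.3, 40.1 and 46.6 in set 2 and 51.2, 45.2 and 43.8 in set 3. Set 2 lay just below puro, and set 3 overlapped both. The fold was −0.24 in set 2 (log2, SE 0.078, edgeR adjusted p = 0.00996) and −0.11 in set 3 (SE 0.078, adjusted p = 0.248), and the sets did not differ with a call (0.13, adjusted p = 0.148). The set 2 call ended without shIGF2BP2 replicate 2 (edgeR adjusted p = 0.0867), with library totals alone (0.113) and on log2 FPKM (limma adjusted p = 0.128 and 0.125), and without shIGF2BP2 replicate 1 the set 3 value was −0.18 with an edgeR adjusted p = 0.0495.

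Among 18 JmjC demethylase genes tested, 2 rose and 6 fell in set 2, where 30.0% of all genes were called higher and 29.9% lower, and 2 rose and 5 fell in set 3, where these shares were 28.0% and 27.6%. With library totals alone the counts were 6 and 4 in set 2 and 1 and 8 in set 3, and over all 13346 genes 4926 and 3177 in set 2 and 3501 and 3959 in set 3, so the set 2 balance moved with the scaling for the list and for all genes. PHF8 had the largest fall of the list in both, from 51.4 ± 0.67 CPM (SD, n = 3) in puro to 27.7 ± 2.67 and 28.2 ± 1.70 (log2 −0.89 and −0.87, edgeR adjusted p = 2.86e-10 and 6.48e-10). KDM2B fell by 0.35 and 0.37 and KDM4C rose by 0.42 and 0.53. Called in set 2 and not in set 3, KDM4A, KDM5A and KDM6B fell by 0.47, 0.52 and 0.35 and KDM4B rose by 0.23. Called in set 3 and not in set 2, KDM3B, the closest relative of KDM3A, fell by 0.52 (edgeR adjusted p = 2.70e-07), KDM6A and PHF2 fell by 0.36 and 0.28, and KDM5B rose by 0.21. With library totals alone, KDM6B in set 2 and KDM5B in set 3 were not called (edgeR adjusted p = 0.0550 and 0.0556).

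ANKRD37 encodes a small ankyrin repeat protein. It had 15, 3 and 5 counts in puro, 7, 4 and 6 in set 2 and 6, 9 and 14 in set 3, too few to be tested. The arms overlapped, and no direction can be read at this depth. ANKRD37 (chromosome 4, 185396021 to 185400628, plus strand) shares 909 of 2580 exonic bases in GENCODE with UFSP2. The deposited FPKM rest on a gene length of only 784 bases, so the overlap among the exons counted is not known.

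**Figure D3:**
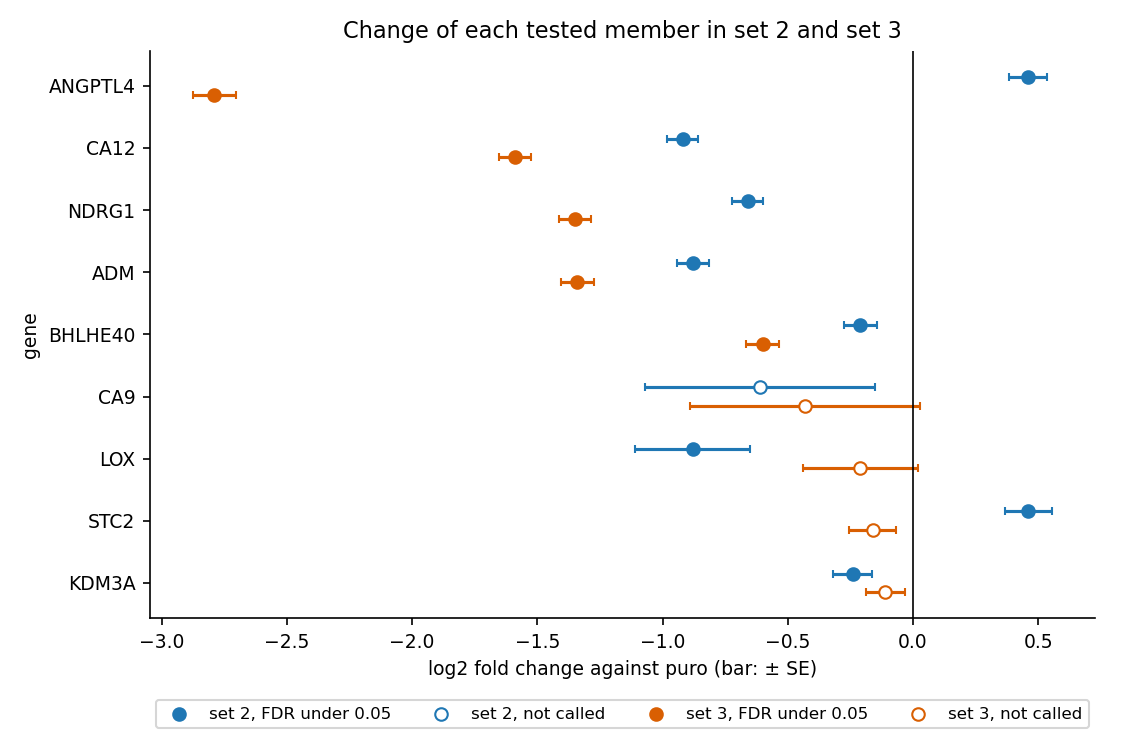
Log2 fold change against puro of the 9 tested genes in set 2 and set 3; bars are ± SE, filled points have an FDR under 0.05 and open points do not, and both sets share the same 3 puro columns. ANGPTL4 lies at 0.46 in set 2 and −2.79 in set 3, while CA12, NDRG1, ADM and BHLHE40 lie to the left of 0 in both and further left in set 3.

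The targeted gene and the HIF system were read in the same columns. IGF2BP2 had 74.8, 76.5 and 79.0 CPM in puro, 25.2, 23.5 and 23.1 in set 2 and 34.5, 31.1 and 35.4 in set 3, so set 2 had the lower level. Set 3 lay above set 2 by 0.49 (log2, edgeR adjusted p = 3.19e-06), as did LOX, whereas CA12, NDRG1, ADM, ANGPTL4, BHLHE40 and STC2 were lower in set 3 than in set 2. EPAS1 had 217 ± 3.25 CPM (SD, n = 3) in puro, 168 ± 3.73 in set 2 and 147 ± 7.65 in set 3. It fell by 0.37 and 0.56 (edgeR adjusted p = 1.33e-05 and 1.64e-08), with a difference between the sets of −0.20 (adjusted p = 0.00795). The EPAS1 columns thus had the same order of arms as CA12, NDRG1, ADM and BHLHE40, an order whose share over all genes was not counted. ARNT2, another HIF subunit gene, had this order as well, at 38.3, 32.3 and 24.4 CPM in puro, set 2 and set 3. It fell by 0.24 and 0.65 (edgeR adjusted p = 0.0161 and 4.32e-07), and with library totals alone it lost the set 2 call (0.149). Any part of EPAS1 or ARNT2 in the levels of those members was not tested.

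HIF1A RNA went the other way, from 128 ± 4.02 CPM (SD, n = 3) in puro to 156 ± 2.19 in set 2 and 251 ± 5.82 in set 3 (log2 0.28 and 0.97, edgeR adjusted p = 0.000300 and 2.65e-13). VHL RNA rose from 59.6 ± 3.81 CPM to 142 ± 3.30 and 84.3 ± 1.27 (log2 1.25 and 0.50, edgeR adjusted p = 1.00e-14 and 4.74e-07). An RNA level does not show a functional protein, in particular for VHL in this line. ARNT, the shared partner subunit, stood at 0.01 in set 2 and −0.23 in set 3 (edgeR adjusted p = 0.945 and 0.0111). EGLN1, the main oxygen-sensing hydroxylase, did not pass in either set (log2 −0.14 and 0.14, edgeR adjusted p = 0.177 and 0.188), and EGLN2 had only 10 to 29 counts a column.

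EGLN3, a hydroxylase that is itself a HIF target, resembled ANGPTL4. It had 21.3, 20.7 and 20.9 CPM in puro, 25.1, 23.4 and 22.6 in set 2 and 7.38, 7.96 and 7.18 in set 3. The fold was 0.18 in set 2 (edgeR adjusted p = 0.0931) and −1.48 in set 3 (adjusted p = 5.06e-13), with −1.66 between the sets (adjusted p = 3.84e-14). Of the 9 tested subunit and sensor genes, 2 rose and 3 fell in set 2, where 30.0% of all genes rose and 29.9% fell. In set 3, 2 rose and 4 fell, where 28.0% of all genes rose and 27.6% fell.

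The wider HIF programme was set beside the 9 tested genes by counts only. Of 35 other tested targets outside glycolysis, 13 rose and 8 fell in set 2 (median log2 0.09), where 30.0% of all genes rose and 29.9% fell. In set 3, 11 rose and 12 fell (median −0.02), where 28.0% of all genes rose and 27.6% fell. These counts lie near the shares over all genes. With library totals alone, 15 rose and 5 fell in set 2 (median 0.19), where 4926 of 13346 genes rose and 3177 fell. That scaling moved the median of all genes in set 2 by 0.098. IGFBP3, a binder of insulin-like growth factors, and DDIT4, an inhibitor of mTORC1, fell by 1.84 and 1.13 in set 2, where the heme oxygenase HMOX1 and the cyclin CCND1 rose by 1.55 and 0.93. In set 3, DDIT4 and EGLN3 fell by 1.20 and 1.48, and HMOX1 rose by 2.27.

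Among glycolytic HIF targets, more genes fell in set 2 than in set 3. Of 23 tested, 17 fell and 1 rose in set 2 (median −0.44), where 29.9% of all genes fell and 30.0% rose. In set 3, 10 fell and 2 rose (median −0.15), where 27.6% of all genes fell and 28.0% rose. PGAM1 and GPI, enzymes of glycolysis, fell by 1.99 and 1.45 in set 2, and the glucose transporter SLC2A3 rose by 0.65. PFKFB4 and the glycogen enzyme GBE1 fell by 1.56 and 0.75 in set 3, and ENO1 and GAPDH rose by 0.20 and 0.18. Between the sets, 29.8% of all genes were higher and 30.8% lower in set 3. There, 10 glycolytic genes were higher and 4 lower (median 0.16). Among the 9 non-glycolytic genes 1 was higher and 6 were lower (median −0.46), a contrast of the lists that was not tested. With library totals alone the glycolytic counts were 9 higher and 6 lower (median 0.04), where 3000 of 13346 genes were higher and 5263 lower. That scaling moved the median of all genes between the sets by −0.125. Several glycolytic genes, among them GAPDH, PGAM1 and ENO1, have processed pseudogenes, and how shared reads were counted is not given in the sources used here, so their values are uncertain.

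**Figure D4:**
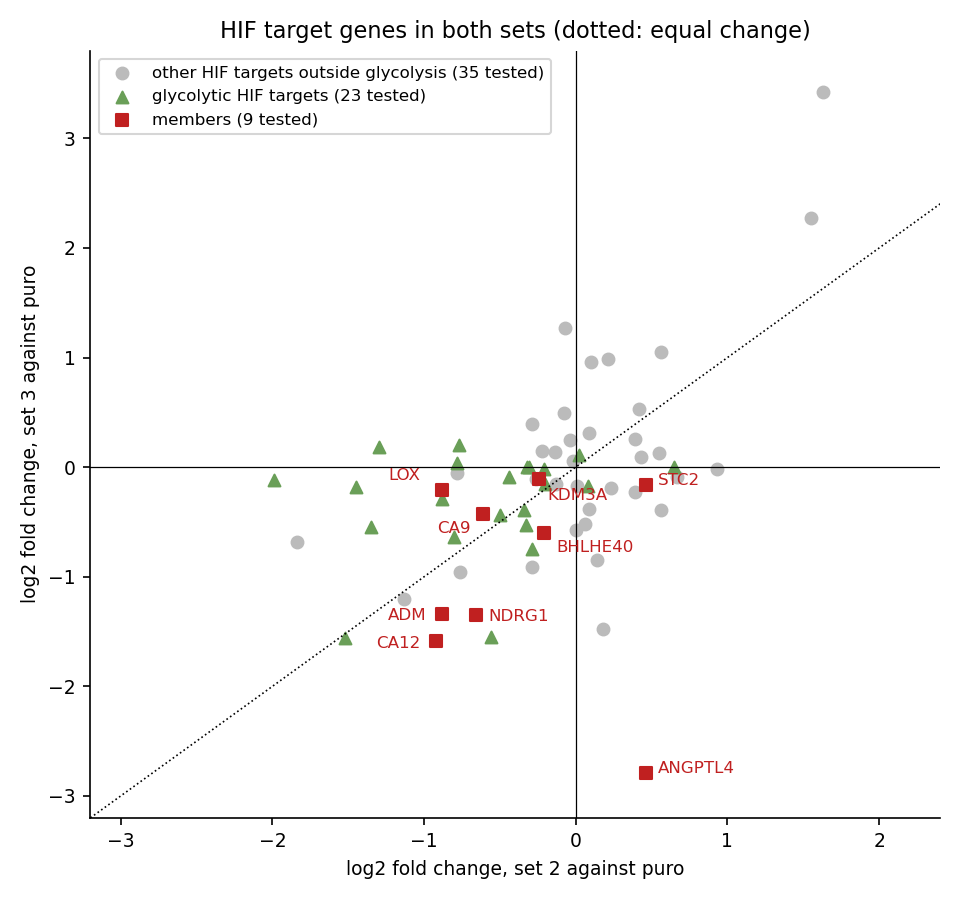
Log2 fold change in set 2 (horizontal) and set 3 (vertical) of the 9 non-glycolytic members (red squares, named), 23 glycolytic HIF targets (green triangles) and 35 other HIF targets (grey circles); both axes use the same 3 puro columns, and the dotted line marks an equal change. CA12, NDRG1, ADM, BHLHE40 and ANGPTL4 lie below the dotted line, and most glycolytic genes lie above it, where set 3 is higher than set 2.

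Genes whose log2 CPM most resembled each member were ranked by Pearson's r over the 9 columns, among 10303 genes with a mean of at least 5 CPM. These columns form 3 arms, so r mostly reads the order and spacing of the arms and is given as a description. CA12 was closest to THRB (r = 0.998), the thyroid hormone receptor beta, and ASB2 (0.997), and ADM to SERPINA1 (0.999), the antitrypsin gene, and GAL3ST1 (0.998), a sulfotransferase. THRB had −0.72 in set 2 and −1.27 in set 3, and ASB2 −2.19 and −4.09, so a like shape went with unlike sizes. NDRG1 was closest to COPG1 and UBASH3B (0.997 each), and BHLHE40 to ASF1B (0.994).

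ANGPTL4 was closest to PDIA3, a disulfide isomerase of the endoplasmic reticulum, and EGLN3 (r = 0.997 each). PDIA3 had 702 CPM in puro, 843 in set 2 and 279 in set 3, with log2 folds of 0.27 and −1.33. STC2 was closest to UCK1 (0.971) and FBH1 (0.967), KDM3A to NET1 (0.990) and CUL1 (0.960), LOX to BOC (0.951) and NOCT (0.938), and CA9 to MREG (0.949) and SEC31A (0.938). For CA9 and LOX the low counts limit what such a ranking can hold.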

How the data were processed

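The authors deposited a table of whole read counts by gene symbol and a table of FPKM for the same columns. Per the submitters' processing notes, the tools were fastp 0.23.2 (trimming), STAR 2.7.10a (alignment to build hg38), featureCounts and DESeq2. Annotation, strandedness and the handling of shared reads: not given in the sources used here. The deposited FPKM values are the counts rescaled: 16722 of 16722 genes gave 1 gene length in every column within a relative tolerance of 1e-06.

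From the counts, 13346 genes passed filterByExpr (min.count 10) in a fit of all 9 columns with 3 arms, and 13518 in a fit of 6 samples with both columns of each shIGF2BP2 sample summed. The edgeR 4.0.16 quasi-likelihood test (R 4.3.3) with TMM factors and Benjamini-Hochberg adjustment over all genes was used, and the script was checked on simulated counts. Standard errors come from the F statistic. CPM values are TMM-scaled, and log2 CPM used a prior count of 2. Positions and exonic overlaps are from GENCODE (GRCh38) and promoter windows from RefSeq. The gene length behind the deposited FPKM was shorter than the GENCODE exonic length for every member, so the overlaps may not hold for the exons counted. The members, lists and tests were chosen with earlier results of these data known. Genes named are the members, IGF2BP2, the HIF subunits and sensors, called family genes of at least 1 CPM on average, up to 2 rises and 2 falls per HIF list and set by smallest FDR, and the 2 genes most like each member. CALCRL, the RAMP genes and the marker genes are named outside that rule. Some genes that the rule names are left out of the text, and counts include them. Alternatives used DESeq2 1.42.0, limma 3.58.1 (voom, and log2 FPKM with pseudocounts of 1 and 0.1), other scalings and filters, a replicate block, and each replicate left out. No column was left unmapped. Columns of the same arm differed by more than sampling noise, so none was treated as a repeat. Deviations from the arm means gave no sign that replicate numbers pair the columns.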

Additional observations from a re-analysis of the deposited data

Results flagged for a closer look

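The set 3 columns differed from the set 2 columns in 7 of the 9 tested genes, by the edgeR test of the difference itself at an FDR of 0.05. The difference, set 3 minus set 2 on the log2 scale, was −3.25 for ANGPTL4, −0.70 for NDRG1, −0.67 for CA12, −0.62 for STC2, −0.46 for ADM, −0.39 for BHLHE40 and 0.67 for LOX. In ANGPTL4 and STC2 the fold was above 0 in set 2 and below 0 in set 3, the set 3 value of STC2 not passing the test. Of all 13346 genes, 30.8% were lower and 29.8% higher in set 3 than in set 2 by the same test.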

How the results depend on the processing

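Over 608 values of the 9 tested genes under the alternatives, 582 kept their direction and their side of the threshold, 22 lost the call, 3 gained it and 1 changed sign. The change of sign was CA9 between the sets, which was not called in either case: 0.19 as reported, −0.02 without shIGF2BP2 replicate 2, and up to 0.45 as other single replicates were left out. Genes called ranged from 6 to 8 in set 2, from 5 to 6 in set 3 and from 6 to 8 in the summed comparison as single replicates were left out, and were 7 each time between the sets. CA12, NDRG1, ADM and ANGPTL4 kept their calls in each set under every alternative run. The summed comparison called 3 genes in place of 8 when the first number of each column name was read as the sample, which leaves 2 knockdown samples, while calls over all genes dropped from 7842 of 13518 to 1285 of 13192. There ANGPTL4, BHLHE40, LOX, STC2 and KDM3A lost their calls, and LOX also lost its summed call without puro replicate 3 or shIGF2BP2 replicate 3 (edgeR adjusted p = 0.0737 and 0.110), STC2 without shIGF2BP2 replicate 3 (0.0628), and KDM3A without puro replicate 3 or shIGF2BP2 replicate 2 (0.0529 and 0.0799) and on log2 FPKM (limma adjusted p = 0.0564 and 0.0534). KDM3A between the sets passed without shIGF2BP2 replicate 3 (0.24, edgeR adjusted p = 0.0316). A minimum of 1 CPM in 3 columns left CA9 untested.

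Scaling by library totals alone moved the median of all genes by −0.125 (log2) between the sets and changed the split of calls there from 3983 higher and 4114 lower to 3000 and 5263, in set 2 from 3998 and 3991 to 4926 and 3177. With the replicate block, 8, 5, 7 and 8 members were called in the 4 comparisons, as without it, and 7538, 6942, 7636 and 7302 genes in all against 7989, 7425, 8097 and 7842. Deviations of columns with the same number correlated at −0.103 to 0.0387 and those with different numbers at −0.0721 to 0.0945, so the deviations gave no pairing of columns by number. Counts of 14 to 26 a column for CA9 and 3 to 15 for ANKRD37 limit what can be said of them. Counting intervals were not drawn for single columns, and reads without molecular identifiers are not independent molecules.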
